A study of Mus musculus with 12 samples.

Results

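Estrus, the stage at which the female mouse accepts the male and has just ovulated or is about to, was set against the rest of the estrous cycle in oviductal tissue. The 3 estrus arrays were compared with 9 arrays of the other stages, 3 each from proestrus, metestrus and diestrus, out of 12 arrays in all. The groups follow the stage named for each array, and no measured value entered the choice. All animals were ICR mice, an outbred strain, of 6 weeks, with no treatment or genetic change named. Biotinylated cRNA made from the total RNA was read on Illumina bead arrays in 1 colour. Within a stage the arrays carry the numbers 1 to 3, and it is not stated that each is an animal of its own, a pool or a second reading of one sample. The p-values therefore measure the spread between these arrays, which may be technical.

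The oviduct, or fallopian tube, receives the cumulus-oocyte complex after ovulation, hosts fertilisation and carries the embryo to the uterus. Its lining holds secretory and ciliated cells, and smooth muscle lies around it. Estradiol made by granulosa cells of the growing follicles peaks before ovulation, and progesterone from the corpora lutea follows it. In rodents the ovary, the bursa and the oviduct lie against each other. The oviduct's own markers were present: Ovgp1, the oviduct glycoprotein of secretory cells, lay between 14.8 and 15.78 log2 units over the 12 arrays. Foxj1, the regulator of ciliated cells, lay between 7.33 and 7.91. Acta2, smooth muscle actin, lay between 15.78 and 15.84, and all 3 genes were detected on 12 of 12 arrays.

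Levels below are log2 intensities after background correction and normalization over the 12 arrays, and a difference of 1 is a doubling. A gene was tested when its probe was detected (detection p under 0.01) on at least 3 arrays, which left 10144 genes. Array number 1 of each stage was brighter before normalization, with a median raw intensity of 139 to 156 against 99.3 to 105 on the others, and 48.6% to 58.1% of probes were detected per array. Each gene was asked a pair of questions. The first set the estrus mean against the equal-weight mean of the other 3 stages. The second asked whether estrus stood apart from every other stage: all 3 differences had to share a sign, and the largest of their 3 p-values was adjusted over all genes (limma, Benjamini-Hochberg, threshold 0.05).

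The sequences shown are windows around a start site of 3 of the genes that stood apart. Each holds a match to 1 of 2 short motifs. Most of the genes searched held no match. The 3 code for a protease-like protein, a steroid enzyme and a hormone receptor. RefSeq (GRCm38.p6) gave promoter windows, 250 bases before to 50 after the start, for 26 of the 34 such genes. Capitals mark matches to either of 2 motifs that a search of both strands found. TGACG, the core of the cAMP response element, appears in capitals as its reverse complement CGTCA, and AAGGTCA is the site read by NR5A receptors. The windows lie on the plus strand at chr9:86743383-86743682 for Prss35, chr9:57997774-57998073 for Cyp11a1 and chr15:102445117-102445416 for Amhr2. The annotated gene begins before the window for Prss35 (at 86743240) and for Amhr2 (at 102445002). These 2 windows thus lie inside the gene span, around a later start site.
Prss35: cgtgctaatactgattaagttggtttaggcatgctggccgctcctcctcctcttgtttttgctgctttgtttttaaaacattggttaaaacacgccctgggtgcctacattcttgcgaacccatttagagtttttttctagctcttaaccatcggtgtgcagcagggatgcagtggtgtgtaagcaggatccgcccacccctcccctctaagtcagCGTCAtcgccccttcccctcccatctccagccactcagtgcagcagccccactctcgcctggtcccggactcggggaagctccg
Cyp11a1: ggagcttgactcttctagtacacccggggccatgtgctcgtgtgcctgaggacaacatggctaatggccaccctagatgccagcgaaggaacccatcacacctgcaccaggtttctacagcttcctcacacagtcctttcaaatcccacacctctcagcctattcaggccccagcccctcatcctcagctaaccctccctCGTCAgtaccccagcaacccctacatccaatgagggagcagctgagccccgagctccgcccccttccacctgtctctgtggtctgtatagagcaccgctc
Amhr2: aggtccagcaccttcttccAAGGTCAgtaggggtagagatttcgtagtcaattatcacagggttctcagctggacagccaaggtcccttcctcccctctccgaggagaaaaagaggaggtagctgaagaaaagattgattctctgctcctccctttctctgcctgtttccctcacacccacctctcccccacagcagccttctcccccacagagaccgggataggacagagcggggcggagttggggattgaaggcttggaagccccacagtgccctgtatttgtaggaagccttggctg
The TGACG match began 34 bases before the start site of the Prss35 window and 50 bases before that of the Cyp11a1 window. A further Cyp11a1 window held none. AAGGTCA began 231 bases before the start site of the Amhr2 window. Over the 26 genes, TGACG was found in 6 (23.1%), against 23% of all 27025 genes with a window. AAGGTCA was found in 1 of the 26 (3.85%), against 5.38% of all genes. The palindromic estrogen response element (GGTCA, any 3 bases, TGACC) was in 0 of the 26 and in 0.07% of all 32851 windows. The shares for TGACG and AAGGTCA lay near those of all genes, and a match is a description of letters only.

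Estrus stood apart from every other stage by being higher. The test called 34 genes (0.335% of the 10144 tested), 34 of them higher at estrus and 0 lower. The median difference to the nearest of the other stages was 1.48, with a range of 0.99 to 3.37. In all 34 genes the 3 estrus arrays lay above all 9 others, a pattern seen in 160 genes over the whole array (1.58%), against 51 genes (0.503%) with the 3 estrus arrays below all others. At an unadjusted p under 0.05 the test named 112 genes higher and 10 lower, and the lowest adjusted p on the lower side was 0.067. Signs alone were close to even, with 2026 genes higher and 2214 lower than every other stage. The median difference over all genes was -0.006.

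With the array number as a block in the fit, 65 genes (0.641%) stood apart as higher, the 34 among them, and 1 gene stood apart as lower (0.00986%). Against the mean of the other stages the block called 298 genes higher (2.94%) and 114 lower (1.12%), against 124 (1.22%) and 13 (0.128%) without it. Counts of list members below are read against 1.22% and 0.128% without the block and against 2.94% and 1.12% with it. The lists were chosen with earlier results of these data known, so these counts are no independent test. The nearest stage was proestrus for 14 of the 34 genes, diestrus for 12 and metestrus for 8. Of the 34, 17 were detected on all 12 arrays and 8 were detected at estrus and on no other array. These 8 passed the filter of 3 arrays only through the estrus arrays, so their being higher there was favoured by the filter. Defb19, Sprr2d, Clca1 and Hsd3b1, among the 8, also count in the gene lists below. Over all genes tested, 18 were detected at estrus alone. The number of genes apart was 13 with the authors' normalized values and 4 with the brighter arrays normalized apart from the rest, both without a block.

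**Figure D1:**
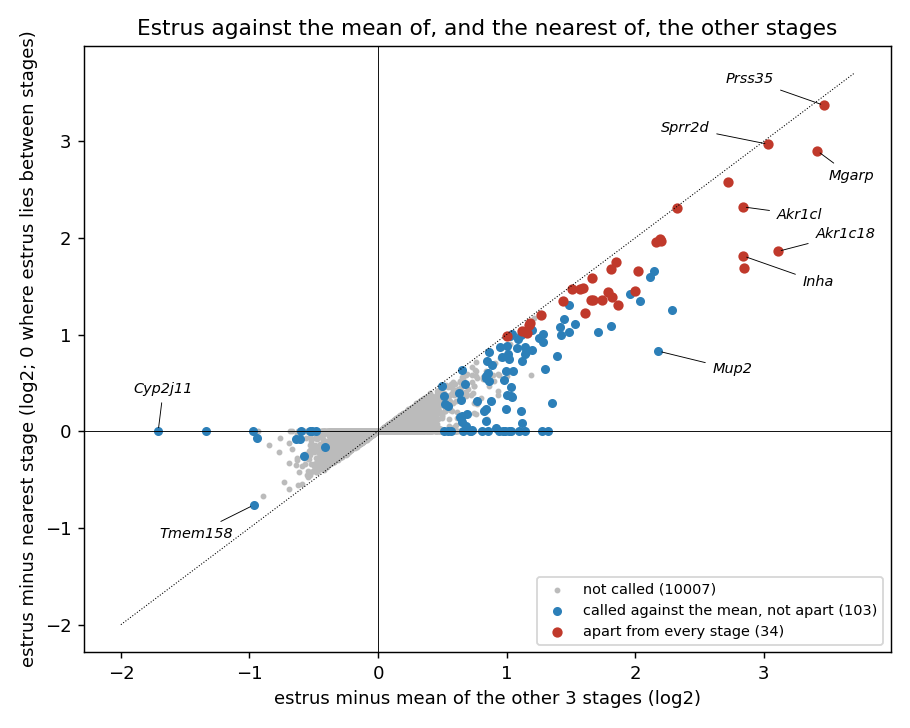
Each point is 1 of the 10144 genes. The horizontal axis is estrus minus the mean of the other 3 stages and the vertical axis is estrus minus the nearest stage, both in log2 units, with 0 where estrus lies between stages; the dotted line marks equal values. Red points, the 34 genes apart from every stage, lie on the higher side, with Prss35 at the top at 3.37.

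Prss35, a secreted serine protease-like protein described in the mouse ovary, had the largest difference. It read 10.51, 10.23 and 10.32 at estrus, and the 9 other arrays had a lowest value of 6.41, a median of 6.98 and a highest of 7.18. The estrus arrays formed a tight group far above a flat baseline. Against proestrus, the nearest stage, the difference was 3.37 ± 0.18 (SE from the fit, 3 arrays per stage), or 10.3-fold (adjusted p = 4.6e-06). Each ± beside a difference below is this SE.

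Mgarp, a mitochondrial protein abundant in steroid-making tissues, read 11.23, 10.96 and 11.18 at estrus. The other arrays had a lowest value of 7.1, a median of 7.61 and a highest of 8.49, the highest being a proestrus array. The groups did not overlap, and the difference to proestrus was 2.9 ± 0.18 (7.46-fold, adjusted p = 8.0e-06). Akr1cl, a member of the aldo-keto reductase 1C family of which several reduce steroids, read 11.7, 11.53 and 11.69 at estrus against a range of 8.33 to 9.37 elsewhere. It exceeded proestrus by 2.32 ± 0.13, or 5-fold (adjusted p = 4.6e-06). A second, dimmer Akr1cl probe differed by 1.87 from the mean of the other stages, and the first by 2.84.

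Large differences were also seen in genes at background outside estrus. Defb19, a beta-defensin of the antimicrobial peptide family, read 7.62, 8.17 and 7.99 at estrus and 4.47 to 5.69 on the other arrays. It was not well above background on any of those 9, so estrus was at least 4.9-fold higher (adjusted p = 6.9e-04). Sprr2d, a small proline-rich protein of the cornified envelope of squamous cells, read 7.17, 7.95 and 7.83 at estrus and 4.5 to 4.79 elsewhere. It too was undetected on all 9 other arrays, and estrus was at least 4.05-fold higher (adjusted p = 8.0e-06). For these bounds, the intensity at a stage with no detection was raised, array by array, to the dimmest signal of any detected probe. A stage with a detection on any array was left as read. Each adjusted p beside a bound, here and below, was computed on the levels as read and does not test the bound.

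**Figure D2:**
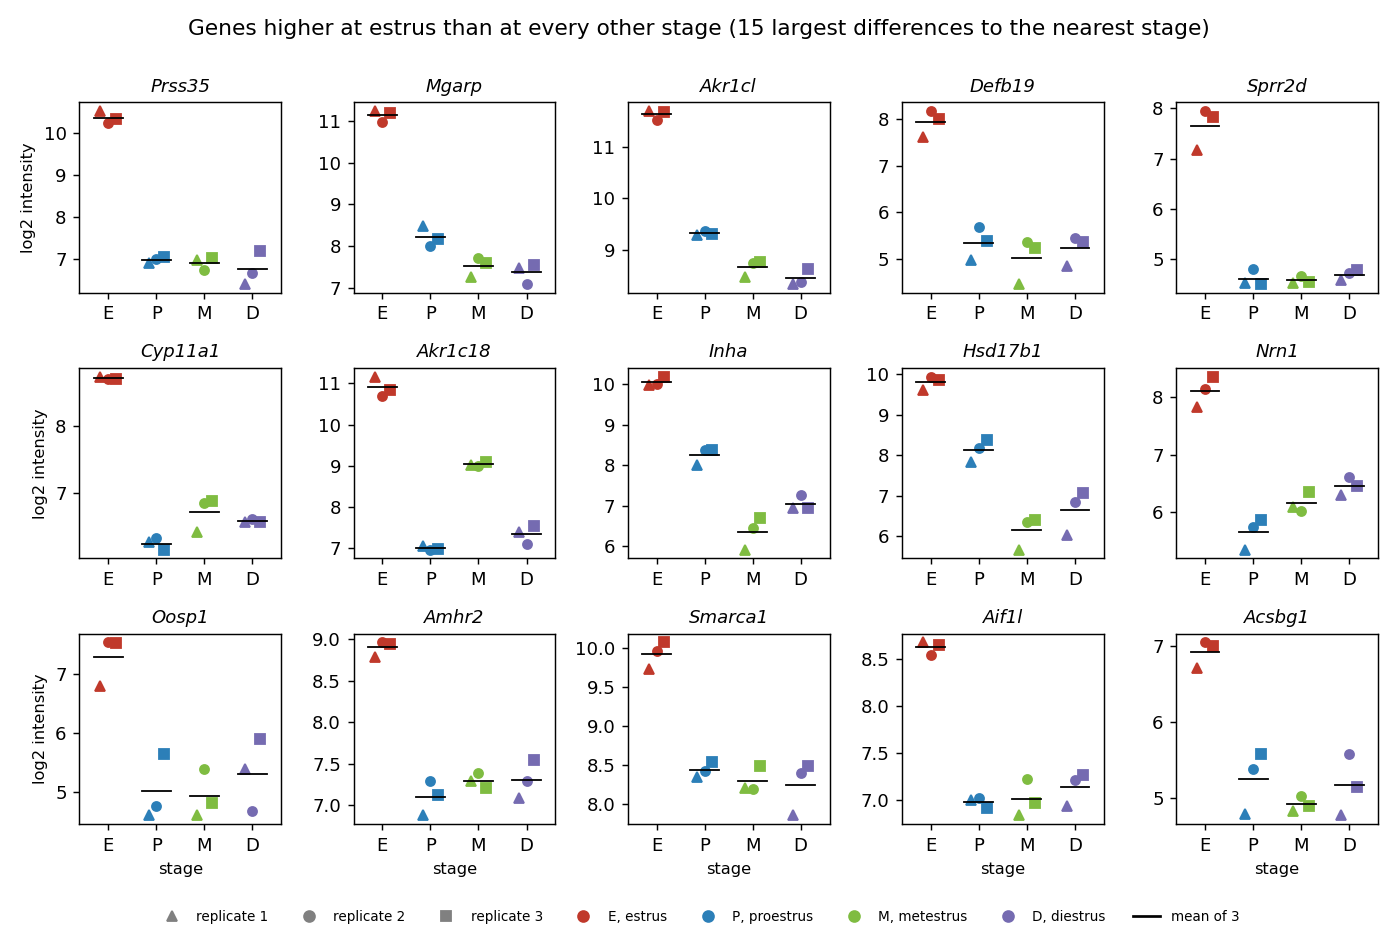
Log2 intensity on each array for the 15 genes apart with the largest difference between estrus and the nearest stage, leaving out clone names and using bounds where a stage had no detection. E, P, M and D are estrus, proestrus, metestrus and diestrus; shapes give the array number and bars the mean of 3. In each panel the 3 estrus points lie above the 9 others, as for Prss35 (10.23 to 10.51 against 6.41 to 7.18).

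Genes of ovarian steroid and peptide hormone production made up a visible share of the 34. Of the 16 tested members of the granulosa, theca and luteal list, 10 were higher at estrus than the mean of the other stages and 0 lower, against 124 of all genes (1.22%) higher and 13 (0.128%) lower. The block raised the higher members to 12 of the 16, with 0 lower. Of the 16, 6 also stood apart from every stage, against 0.335% of all genes: Akr1c18, Hsd17b1, Inha, Cyp11a1, Nr5a2 and Hsd3b1. Of the 16, 2 were detected at estrus alone, Hsd3b1 among them, and the filter favoured their being higher. The list was chosen with earlier results of these data known. The list's median difference was 0.95, or 0.71 with undetected values at their bound, against -0.01 over all genes. In a bulk tissue, more cells of a type and more RNA per cell cannot be told apart.

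Cyp11a1, the enzyme that makes pregnenolone from cholesterol as the first step of steroid synthesis, read 8.73, 8.7 and 8.7 at estrus. The other arrays ran between 6.16 and 6.88 with a median of 6.57. The 3 estrus readings were nearly equal and clear of the rest, and exceeded metestrus, the nearest stage, by 1.99 ± 0.13 (3.97-fold, adjusted p = 1.3e-05). Akr1c18, the 20-alpha-hydroxysteroid dehydrogenase that inactivates progesterone, read 11.16, 10.69 and 10.85 at estrus. At metestrus it read 9.02, 8.99 and 9.1, and at proestrus 7.05, 6.96 and 6.97. Metestrus was thus intermediate, 1.86 ± 0.15 below estrus (3.63-fold, adjusted p = 7.2e-05), and proestrus, the stage before, was 3.9 below it.

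Inha, the alpha subunit of inhibin, which granulosa cells secrete to hold back FSH, had proestrus as its nearest stage. It read 9.98, 10 and 10.18 at estrus against 8, 8.36 and 8.37 at proestrus, and metestrus was as low as 5.91. The difference to proestrus was 1.81 ± 0.2 (3.51-fold, adjusted p = 8.4e-04). Hsd17b1, which turns estrone into estradiol in granulosa cells, followed the same order of stages. It read 9.62, 9.94 and 9.87 at estrus against 7.82, 8.17 and 8.38 at proestrus, a difference of 1.69 ± 0.28 (3.23-fold, adjusted p = 0.022). Its call was lost without any 1 of the 3 estrus arrays or without proestrus array 1 or 2, with an adjusted p of up to 0.14.

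Receptors and a regulator of this system rose with the enzymes. Amhr2, the type 2 receptor of anti-Mullerian hormone, read 8.79, 8.96 and 8.94 at estrus against 6.88 to 7.55 elsewhere, 1.58 ± 0.15 above diestrus (3-fold, adjusted p = 3.0e-04). Its 2 dimmer probes differed by 1.19 and 0.5 from the mean of the other stages, and the one used by 1.66. Nr5a2, an orphan nuclear receptor that drives steroidogenic genes in granulosa cells, read 7.22, 7.69 and 7.45 at estrus. Proestrus was at 5.84, 6.02 and 6.16, metestrus had no detection, and estrus was 2.72-fold above proestrus, the nearest stage (1.45 ± 0.19, adjusted p = 0.0038). The second Nr5a2 probe differed by 0.15 from the mean of the other stages where the one used differed by 2, so the probes of this gene disagree.

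Esr2, the estrogen receptor beta that is abundant in granulosa cells, read 6.87, 7.01 and 6.75 at estrus and was detected on 1 of the 9 other arrays, a proestrus one at 6.03. Estrus was at least 2.52-fold above metestrus, a stage with no detection. It was 2.71-fold above proestrus with the undetected arrays there left as read, which is no bound. Against every stage the adjusted p was 0.013. The call was lost without any 1 of the 3 estrus arrays or without proestrus array 3 (adjusted p up to 0.092). Hsd3b1, a 3-beta-hydroxysteroid dehydrogenase of progesterone synthesis, was detected at estrus alone, at 5.72, 5.7 and 6.04, close to background. It was at least 1.14-fold higher there (adjusted p = 0.0012). Esr1, the estrogen receptor alpha, and Pgr, the progesterone receptor, were not called against the mean, with differences of -0.04 ± 0.16 and -0.1 ± 0.12 (adjusted p = 1 for both).

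The other called members of this list were not apart from every stage. Inhba, the beta A subunit shared by inhibin A and activin A, read 7.7, 7.91 and 7.93 at estrus against 7.87, 8.04 and 8.17 at proestrus, where it was slightly higher. Star, which carries cholesterol into the mitochondrion and was undetected at proestrus, was at least 1.49-fold above the mean of the other stages (adjusted p = 0.033), a call lost on leaving out any 1 of 6 arrays. Fst (follistatin, 0.84 above the mean) and Fshr (the FSH receptor, at least 1.21-fold higher) were called against the mean alone, and lost it without estrus array 2 or 3. Fshr, Fst and Inhba were named after their values were seen, to complete the list.

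Some members of the list were undetected or not called. Amh, Nr5a1, Fdx1 and Insl3 were undetected on all 12 arrays. Foxl2, the granulosa transcription factor, differed by -0.15 from the mean of the other stages and was not called. Cyp17a1 differed by 0.84 and was not called either (limma, adjusted p = 0.12). The summed intensity of the list's 16 members was 14400 to 16200 on the estrus arrays, 10200 to 12800 at proestrus, 7850 to 9880 at metestrus and 8740 to 9370 at diestrus. Whether ovarian cells on the dissected tissue take part in these differences was not tested.

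Transcripts of the oocyte were higher at estrus too. Of 14 oocyte genes tested, 9 were higher than the mean of the other stages and 0 lower, against 1.22% and 0.128% of all genes. Omt2b, 1 of the 9, was detected at estrus alone, so the filter favoured its being higher. This list too was chosen with earlier results of these data known. Of the 14, 3 stood apart from every stage, against 0.335% of all genes. The fit with the block called 11 higher and 0 lower. Their median difference was 1.55, or 1.15 with undetected values at their bound. Oosp1, an oocyte-secreted protein, read 6.8, 7.53 and 7.52 at estrus. It was undetected at proestrus and metestrus and was detected on 2 diestrus arrays. Estrus was at least 3.14-fold above proestrus and 3.92-fold above diestrus as read (adjusted p = 0.047 against every stage). That adjusted p was the highest of the 34, and the call was lost on leaving out any 1 of 9 arrays (adjusted p up to 0.3).

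Nlrp14, an NLR family protein of oocytes and early embryos, read 8.4, 8.1 and 8.3 at estrus against 6.94, 6.94 and 7 at diestrus, the nearest stage. The 1.31 ± 0.19 difference (2.47-fold, adjusted p = 0.0089) was lost without estrus array 1 or 3 or diestrus array 2 (adjusted p up to 0.062). Bmp15, a growth factor by which the oocyte acts on its cumulus cells, read 6.76, 6.88 and 6.98 at estrus, and was 2.34-fold above diestrus, the nearest stage (1.23 ± 0.17, adjusted p = 0.0055). It was detected on 2 of the 9 other arrays, both from diestrus. Diestrus was also the nearest stage for Gdf9, the partner of Bmp15, which read 8.53, 9.13 and 9.03 at estrus and 6.78, 7.4 and 7.72 at diestrus. Gdf9 was called against the mean (2.11 ± 0.27, adjusted p = 0.0014) and reached an adjusted p of 0.12 against every stage, or 6.5e-05 with the array number as a block.

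Padi6 and Ooep, components of the cytoplasmic lattices and the subcortical complex of the oocyte, behaved like Gdf9. Ooep read 8.21, 8.43 and 8.54 at estrus, against a lowest value of 5.65, a median of 6.59 and a highest of 7.44 elsewhere. It was 1.96 ± 0.22 above the mean of the other stages (adjusted p = 5.2e-04), and against every stage its adjusted p was 0.073, or 0.0043 with the block. Padi6 was at least 3.94-fold above the mean of the other stages (adjusted p = 0.0013), and against every stage its adjusted p was 0.24, or 0.0025 with the block.

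Markers of the oocyte that were undetected on all 12 arrays numbered 8, among them Mos and the zona pellucida genes Zp1 and Zp2. The summed intensity of the 14 tested members was 2670 to 3500 at estrus, 990 to 1360 at proestrus, 1070 to 1400 at metestrus and 1600 to 2040 at diestrus. The cumulus and granulosa matrix list, which holds genes induced as the cumulus expands, had 7 tested members and 1 called, Star, or 2 higher with the block, with a median of -0.07. Has2, Tnfaip6, Ptgs2 and Vcan, which build or mark the cumulus matrix, were undetected on all arrays. The part of oocytes within the tube in these values was not tested.

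**Figure D3:**
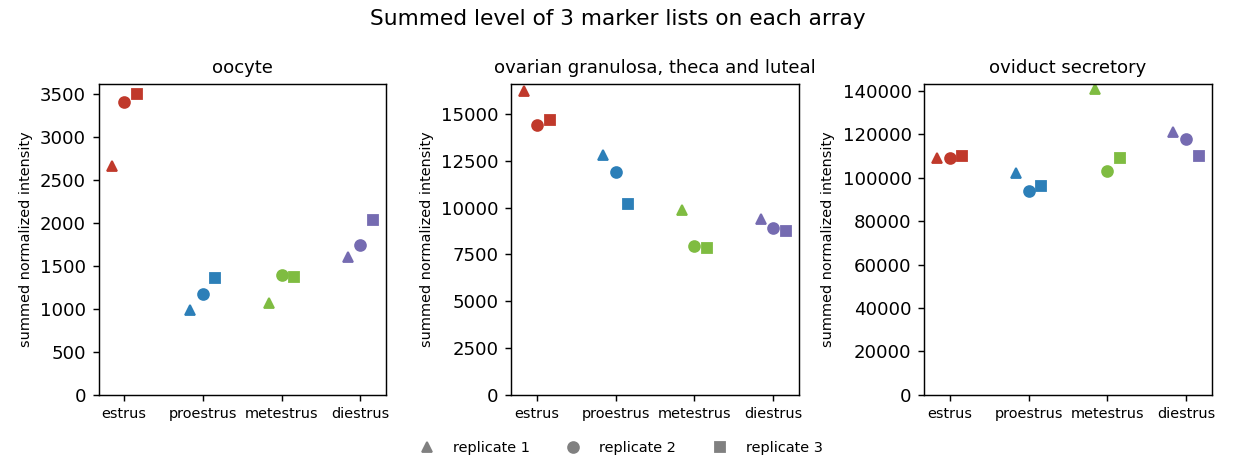
Summed normalized intensity (linear scale, from 0) of the tested members of 3 marker lists on each array, with shapes for the array number. The oocyte sum at estrus (2670 to 3500) and the ovarian sum (14400 to 16200) lie above all other arrays, while the oviduct secretory sum at estrus (109000 to 110000) lies inside the range of the others (93900 to 141000). Among lists not drawn, the cornified envelope, steroid, cell cycle and adipocyte sums at estrus also lay above all other arrays. The ciliated sum lay below them.

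Of the 34 genes, 3 were in the oocyte list, 6 in the ovarian list and 15 in any of the 29 lists, which left 19 in none. Nrn1, the membrane-anchored neuronal protein neuritin, read 7.83, 8.15 and 8.36 at estrus against 5.35 to 6.62 elsewhere. It was 1.66 ± 0.18 above diestrus (3.15-fold, adjusted p = 8.4e-04). Smarca1, an ISWI-family chromatin remodelling ATPase, read 9.73, 9.96 and 10.07 at estrus against 7.85 to 8.54 elsewhere, 1.48 ± 0.18 above proestrus (2.79-fold, adjusted p = 0.0017). The remaining stages differed little among themselves for this gene, with means of 8.43, 8.29 and 8.24 at proestrus, metestrus and diestrus.

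Aif1l, an actin-binding protein, read 8.67, 8.54 and 8.64 at estrus against 6.84 to 7.27, and was 2.78-fold above diestrus (adjusted p = 2.2e-04). Acsbg1, an acyl-CoA synthetase for long-chain fatty acids, read 6.71, 7.05 and 7.01 at estrus and was detected on 2 of the other 9 arrays. It was at least 2.76-fold above diestrus, a stage with no detection, and 3.19-fold above proestrus as read (adjusted p = 0.0055 against every stage). Its second probe differed by 2.08 from the mean of the other stages, close to the 1.81 of the first. Clca1, a regulator of calcium-activated chloride channels, was detected at estrus alone, at 6.21, 7.39 and 7.25. It was at least 2.49-fold higher (adjusted p = 0.0088), and the call was lost without estrus array 2 or 3 (adjusted p 0.054 and 0.064).

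The genes that follow were named after their values were seen, so that all 34 are accounted for. Lipf, gastric lipase, read 10.73, 10.12 and 10.19 at estrus against 7.82 to 9.01 elsewhere (2.62-fold above proestrus). Abcb1b, a P-glycoprotein drug efflux pump, read 9.06, 8.87 and 8.92 against 6.61 to 7.68 (2.57-fold above metestrus). Ephx2, the soluble epoxide hydrolase, read 8.98, 8.83 and 8.79 against 7.18 to 7.79 (2.55-fold above proestrus). In each of the 3, the estrus arrays lay above all 9 others.

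Mrap, the accessory protein of the ACTH receptor, read 7.61, 8.11 and 7.91 at estrus against 5.6 to 6.69 elsewhere (2.57-fold above proestrus, adjusted p = 0.011). Me1, the cytosolic malic enzyme that supplies NADPH, was 2.05-fold above proestrus, and Tmem178, a transmembrane protein, was 2.03-fold above metestrus. The Me1 call was lost on leaving out any 1 of 11 arrays, with an adjusted p of up to 0.18, and the Mrap call on leaving out any 1 of 4. Cxcl1, a chemokine that attracts neutrophils, was 2.14-fold above diestrus (adjusted p = 0.031) and lost its call without any 1 of 8 arrays.

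Hao2, a peroxisomal hydroxyacid oxidase, was detected at estrus alone and was at least 2.32-fold higher (adjusted p = 1.0e-04). Slc18a2, the vesicular monoamine transporter, Bcl2l10, a BCL2-family protein, and Pramel25 were also detected at estrus alone, and were at least 1.29-fold, 1.34-fold and 1.74-fold higher. The clone-named D630023F18Rik was at least 3.27-fold above proestrus, a stage with no detection. Pdyn, the precursor of the dynorphin peptides, had the smallest difference of the 34 in levels as read (0.99 ± 0.17 above metestrus, adjusted p = 0.029). It read 5.55, 5.95 and 6.04 at estrus against 4.59 to 5.07 elsewhere. A second Pdyn probe of almost equal brightness differed by -0.31 from the mean of the other stages, so the probes disagree in sign. The Pdyn call was lost without any 1 of 9 arrays and the Pramel25 call without any 1 of 5.

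A further 103 genes (1.02%) were called against the mean of the other stages without standing apart from every one. Of these, 90 (0.887%) were higher, out of 124 genes higher than the mean (1.22%). Proestrus was the nearest stage for 60 of these 90, diestrus for 17 and metestrus for 13. In 73 estrus was above each stage mean, and in 57 the estrus arrays lay above all others. Of 21 tested genes that estrogen induces in the reproductive tract, 7 were higher than the mean and 0 lower, against 1.22% and 0.128% of all genes. With the block these were 8 and 0, and the list's median was 0.29. Of the 7, 2 (Sprr2d and Clca1) stood apart from every stage and 5 were among the 90. Sprr2d and Clca1 passed the detection filter only through the estrus arrays, so the filter favoured their being higher. The 7 were Sprr2d, Sprr2f, Clca1, Slc26a4, Aqp8, Lcn2 and Aqp5.

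Sprr2f, the small proline-rich gene that estrogen strongly induces in mouse uterus, read 10.19, 9.69 and 9.55 at estrus and 9, 8.38 and 8.29 at proestrus. Metestrus and diestrus lay at 6.3 to 7.49, so the level was high at 2 neighbouring stages and highest at estrus. It was 2.29 ± 0.24 above the mean of the other stages (adjusted p = 2.6e-04), with an adjusted p of 0.24 against every stage. Aqp8, a water channel, read 8.6, 8.88 and 8.85 at estrus against 9.92, 9.68 and 9.86 at proestrus, and 6.62 to 6.82 on the 6 remaining arrays. It was thus called higher against the mean (1.03 ± 0.1, adjusted p = 1.3e-04) while being 1.04 below proestrus.

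Slc26a4, the anion exchanger pendrin, read 7.63, 7.68 and 7.79 at estrus against 6.79, 7.08 and 7.28 at proestrus, and was 1.3 ± 0.2 above the mean. Its call was lost without estrus array 3 (adjusted p = 0.053). Lcn2, lipocalin 2, which withholds iron from bacteria, read 13.01, 13.16 and 13.02 at estrus against 12.74, 12.72 and 12.62 at proestrus and a mean of 11.56 at metestrus. Its estrus arrays lay above all others, but the step to proestrus was 1.29-fold.

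The cornified envelope list had 4 of 9 members higher than the mean and 0 lower, against 1.22% and 0.128% of all genes. The 4 were Sprr2d, Sprr2f, Sprr2g and Cdsn. Cdsn, corneodesmosin, which holds cornified cells together, read 7.45, 7.85 and 7.86 at estrus against 7.82, 7.85 and 8.16 at proestrus. These ranges overlapped, and both stages were above the 5.6 to 6.07 of metestrus and diestrus (1.14 ± 0.13 against the mean, adjusted p = 6.1e-04). Sprr2g was 1.36 ± 0.2 above the mean, with a 1.23-fold step to proestrus. On all arrays 11 members of the list were undetected, including Ivl, Krt5 and Krt6a, which mark squamous epithelium, and Krt14 differed by 0.06. The part of squamous cells in these values was not tested.

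Other genes of the 90 had their nearest stage after estrus. Mup2, a major urinary protein of the lipocalin family, read 9.64, 9.49 and 9.72 at estrus against 8.95, 8.6 and 8.81 at diestrus and 5.86, 6.41 and 6.23 at proestrus. It was 2.18 ± 0.15 above the mean (adjusted p = 9.2e-06). Major urinary protein genes are near-identical copies, so its probes may read several of them, and its second probe differed by 1.21. Prap1, a secreted proline-rich acidic protein of uterus and gut, read 10.24, 10.53 and 10.69 at estrus. Elsewhere it had a lowest value of 7.16, on metestrus array 1, a median of 8.69 and a highest of 9.12. It was 2.14 ± 0.31 above the mean (adjusted p = 0.0035), and against every stage its adjusted p was 0.23, or 0.015 with the array number as a block.

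**Figure D4:**
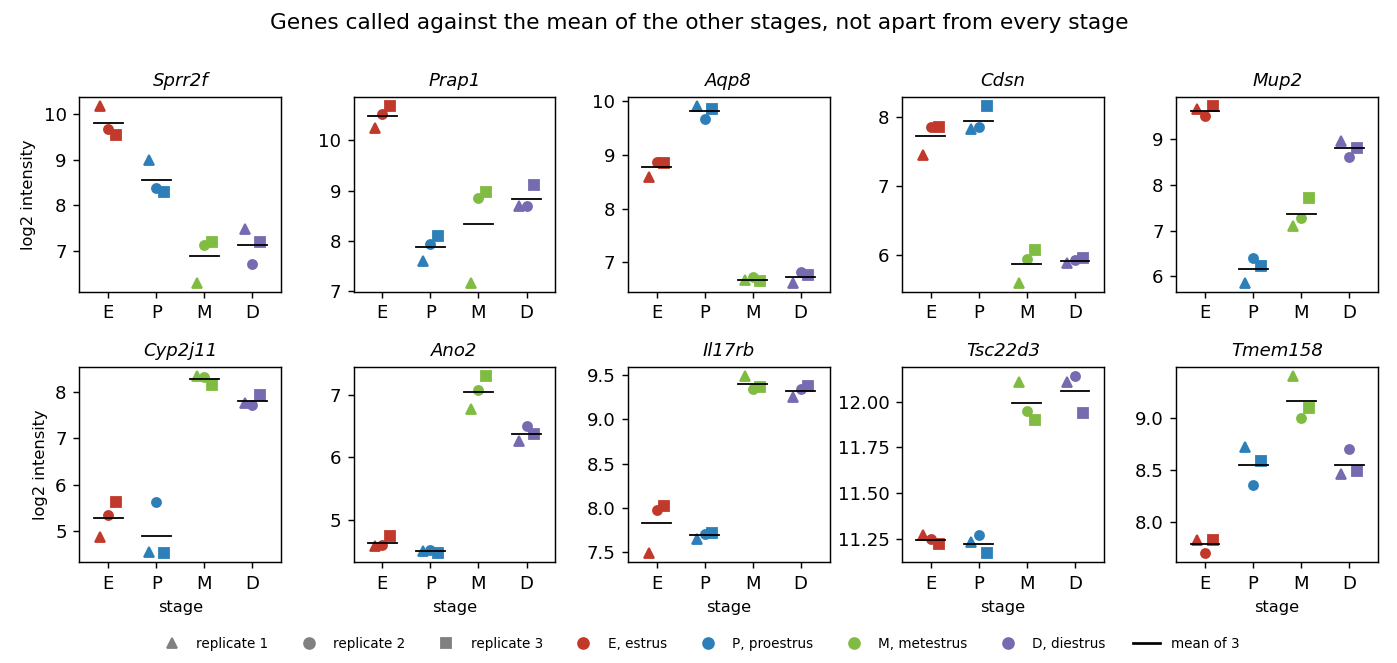
Log2 intensity on each array for 10 genes called against the mean of the other stages but not apart from every stage; letters, shapes and bars are as in the plot of the 15 genes. Aqp8 at estrus (8.6 to 8.88) lies between proestrus and the other stages, and Cyp2j11, Ano2, Il17rb and Tsc22d3 are low at estrus and proestrus alike.

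Lower genes were few, and for most of them proestrus was as low as estrus. Against the mean of the other stages 13 genes (0.128%) were lower, and proestrus was the nearest stage for 11. The estrus arrays lay below all others in 3 of the 13. Cyp2j11, a cytochrome P450 of the 2J family that oxidises fatty acids, was undetected at estrus and proestrus. It read 4.88, 5.35 and 5.62 at estrus against 8.35, 8.32 and 8.15 at metestrus and 7.76, 7.73 and 7.95 at diestrus, and was at least 6.71-fold lower than at metestrus and 4.88-fold lower than at diestrus. Its adjusted p of 0.0014 is that against the mean of the other stages. Ano2, a calcium-activated chloride channel, was likewise undetected at estrus and proestrus, and was at least 2.87-fold lower than at metestrus and 1.8-fold lower than at diestrus (adjusted p = 5.0e-05 against the mean).

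Il17rb, a receptor for interleukin 25, read 7.49, 7.98 and 8.02 at estrus against 7.65, 7.71 and 7.72 at proestrus, 9.34 to 9.49 at metestrus and 9.25 to 9.38 at diestrus. Estrus and proestrus overlapped, and estrus was 1.96-fold below the mean (adjusted p = 8.5e-04). Tsc22d3, the glucocorticoid-induced leucine zipper, had the same shape at 11.27, 11.25 and 11.22 at estrus against 11.23, 11.27 and 11.17 at proestrus, with means of 11.99 at metestrus and 12.06 at diestrus. Its difference from the mean was -0.51 ± 0.09 (adjusted p = 0.013), and the call was lost without any 1 of the 3 estrus arrays (adjusted p up to 0.11).

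Tmem158, a transmembrane protein induced by Ras signalling in human fibroblasts, came nearest to standing apart as lower. It read 7.83, 7.7 and 7.83 at estrus, against 8.72, 8.35 and 8.58 at proestrus, 9.4, 9 and 9.09 at metestrus and 8.46, 8.7 and 8.49 at diestrus. The 3 estrus arrays lay below all 9 others. The difference to proestrus was -0.76 ± 0.15, with an adjusted p of 0.067 against every stage. With the array number as a block it was the 1 gene called lower, at an adjusted p of 0.016.

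Gene lists for immune defence moved in part. Innate defence and complement had 4 of 25 members higher and 0 lower, against 1.22% and 0.128% of all genes, with a median of 0.25. With the array number as a block 8 of the 25 were higher and 0 lower, against 2.94% and 1.12% of all genes. Beside Defb19 and Lcn2, the 4 called without the block were Chil1 and Slpi. Slpi, the secretory leukocyte protease inhibitor, read 8.42, 8.65 and 8.57 at estrus against 8.07, 8.13 and 8.36 at diestrus (1.04 ± 0.2 above the mean, adjusted p = 0.022). Chil1, a chitinase-like protein, was 1.41 ± 0.22 above the mean (adjusted p = 0.0058), and against every stage its adjusted p was 0.39, or 0.024 with the block. The Slpi call was lost without any 1 of 4 arrays and the Chil1 call without estrus array 2 or 3.

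Of the neutrophil list, 1 of 15 members was higher (Lcn2), or 3 with the block, and 0 lower, with a median of 0.27. Its summed intensity was 50500 to 59600 at estrus and 40100 to 64300 on the other arrays. Mmp8 and Cxcr2 were undetected on all arrays, and the part of neutrophils was not tested. The macrophage, lymphocyte, interferon and MHC class II lists had 0 called members of 10, 8, 22 and 8 (limma), with medians of 0.04, -0.03, 0.06 and -0.34. At an unadjusted p under 0.05 they held 0, 1, 4 and 2 genes. With the array number as a block, the MHC class II list had 2 members lower, the lymphocyte list 1 higher, and the macrophage and interferon lists still 0 called.

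The list of serine proteases and their inhibitors had 5 of 28 members higher and 1 lower, against 1.22% and 0.128% of all genes, with a median of 0.03. With the block 8 of the 28 were higher and 1 lower, against 2.94% and 1.12% of all genes. Both higher counts include Prap1, the proline-rich acidic protein above, which is neither a serine protease nor an inhibitor of one. Beside Prss35 and Prap1, Serpina3n, an acute-phase protease inhibitor, read 9.8, 9.89 and 9.73 at estrus against 8.64 to 9.21 elsewhere (0.85 ± 0.12 above the mean, adjusted p = 0.003). Its arrays did not overlap, and against every stage its adjusted p was 0.11, or 0.0076 with the block. Serpina1d, an alpha-1-antitrypsin copy, read 8.05, 8.2 and 8.07 at estrus, between proestrus at 7.24 to 7.27 and the later stages at 8.74 to 9.7. It was called lower against the mean (-0.48 ± 0.09, adjusted p = 0.014), a call lost without any 1 of the 3 estrus arrays. Serpina1 genes are near-identical copies that a probe may not separate.

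Of 29 cell cycle genes, 3 were higher and 0 lower, against 1.22% and 0.128% of all genes, with a median of 0.34. With the block 12 of the 29 were higher and 0 lower, against 2.94% and 1.12% of all genes. Birc5, the mitotic survivin, read 7.58, 7.72 and 7.53 at estrus against 7.17, 6.91 and 7.15 at proestrus and 5.87 to 6.9 elsewhere. It was 0.98 ± 0.17 above the mean (adjusted p = 0.012), and Prc1 and Bub1b, which act in spindle assembly, were 0.65 ± 0.1 and 0.84 ± 0.16 above it. All 3 were lost on leaving out estrus array 2 (adjusted p 0.054 to 0.17). Of 18 cholesterol biosynthesis genes 1 was called, Fdps, which makes farnesyl pyrophosphate. It read 11.39, 11.2 and 11.25 at estrus, 11.65, 11.4 and 11.41 at proestrus and 10.03 to 10.31 elsewhere.

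Ion and water transport had 4 of 23 members higher and 1 lower, against 1.22% and 0.128% of all genes. They were Clca1, Slc26a4, Aqp8, Aqp5 and, as the lower one, Ano2. The 4 higher ones are the same genes counted in the estrogen-induced list, and the median of the transport list was 0.01. With the block, 6 were higher and 2 lower. Steroid receptors and steroid metabolism had 6 of 21 higher, against 1.22% of all genes, yet a median of 0.08. Of the 6, 5 stood apart from every stage, as did 0.335% of all genes. Akr1c18, Hsd17b1 and Hsd3b1, among the 5, were also counted in the ovarian list. Timp1, an inhibitor of matrix metalloproteinases, was the 1 called of 30 extracellular matrix genes, of which 4 were higher and 1 lower with the block. It read 9.91, 10.44 and 10.41 at estrus against 7.76 to 9.47 elsewhere (1.43 ± 0.26 above the mean, adjusted p = 0.016), and lost the call without estrus array 2 or 3. Against every stage its adjusted p was 1, or 0.031 with the block. Cidec, a lipid droplet protein, was the 1 called of 11 adipocyte genes, or of 4 higher with the block (0.68 ± 0.11 above the mean, adjusted p = 0.0055), and lost the call without estrus array 2. Of 15 progesterone- and glucocorticoid-induced genes, 1 was lower (Tsc22d3), against 1 higher and 2 lower with the block. Of 3 erythrocyte genes 0 were called with or without the block (limma), with 1 at an unadjusted p under 0.05.

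**Figure D5:**
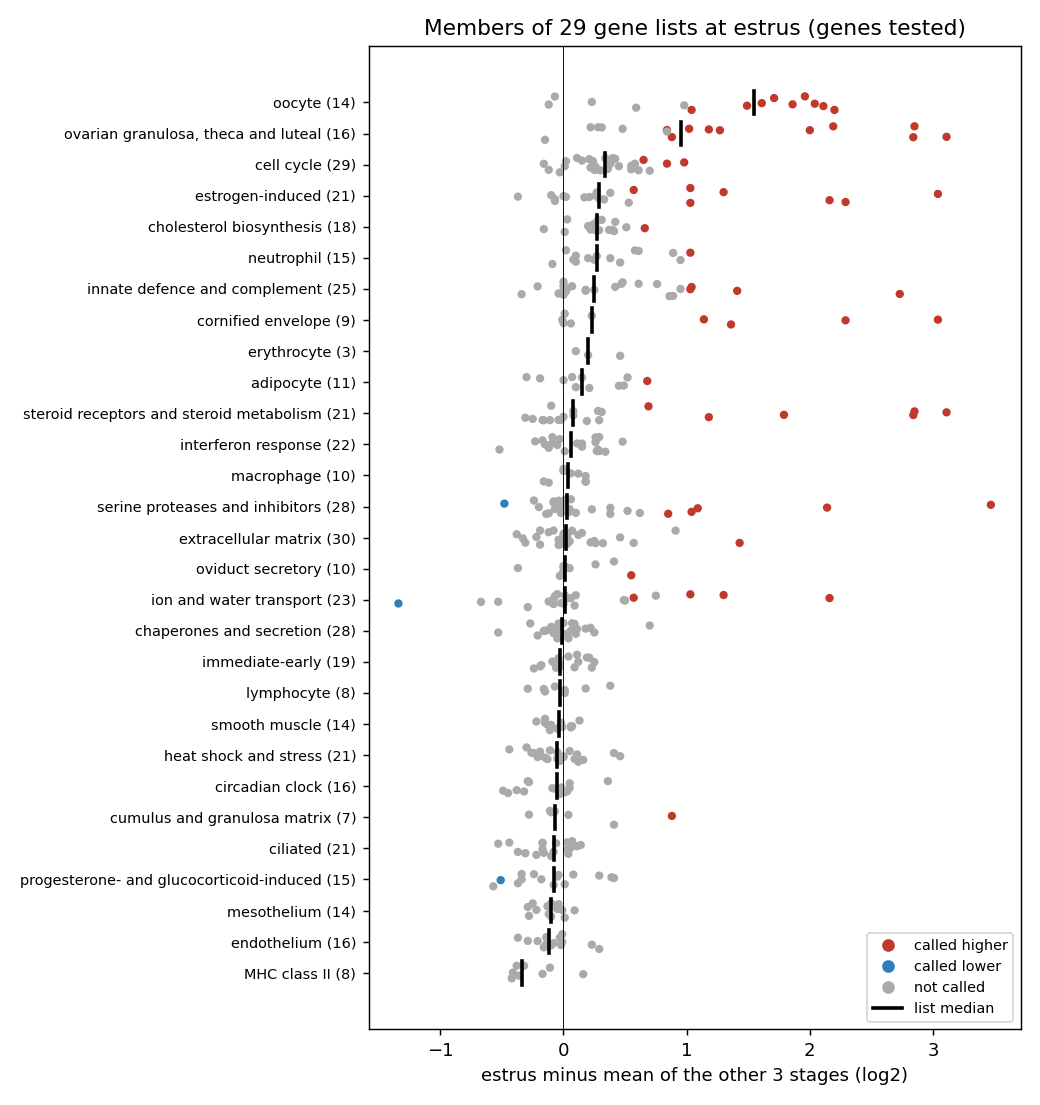
Each point is a tested gene, placed by its difference between estrus and the mean of the other 3 stages (log2), for 29 lists ordered by median; numbers tested are in parentheses and the vertical spread within a row carries no value. The oocyte and ovarian medians (1.55 and 0.95) lie above the other lists, and the medians of the other lists lie within 0.34 of 0.

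Few markers of the oviduct's own cell types were called. Ovgp1 read 15.36, 14.99 and 15.07 at estrus and 14.8 to 15.78 elsewhere, with a difference of 0 ± 0.22 (adjusted p = 1). Of 10 secretory markers 1 was called, Krt7, which was 0.55 ± 0.11 above the mean but 1.09-fold below proestrus, and lost its call without any 1 of 7 arrays, while 2 of the 10 were higher with the block. Of 21 ciliated markers 0 were called in either direction, with a median of -0.08. Their summed intensity was nevertheless 47100 to 48900 at estrus, below the 49700 to 57900 of the other arrays. The lists for smooth muscle (14 genes), endothelium (16), mesothelium (14), circadian clock (16), heat shock and stress (21), immediate-early genes (19) and chaperones (28) also had 0 called, with medians between -0.12 and -0.01 (limma). At an unadjusted p under 0.05 they held 1, 2, 0, 4, 1, 0 and 1 genes in that order, and the ciliated list held 3, against 774 of all genes (7.63%). With the array number as a block 1 ciliated marker and 1 chaperone gene were lower, 1 clock gene was higher, and the lists for smooth muscle, endothelium, mesothelium, heat shock and immediate-early genes still had 0 called.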

How the data were processed

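Per the labels, RNA of mouse oviduct was purified with the RNeasy kit and DNase I, checked on a Bioanalyser, and turned into biotinylated cRNA with the Ambion MessageAmp kit. For 25697 probes on 12 arrays the authors deposited raw intensity values with their detection p-values, per the file headers. The raw intensity values had no background subtracted (lowest 52.3 to 57.9 per array). A second deposited matrix holds the authors' normalized intensity values on a linear scale, some below 0, with one distribution on the 4 arrays numbered 1 and another on the other 8, and was used as an alternative. The sources used here do not name the software for these steps. The array files name no genome build.

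The neqc function of limma 3.58.1 (R 4.3.3) was run on the raw intensities of all 12 arrays: normexp background correction from the detection p-values, an offset of 16, quantile normalization and log2. Of 14778 probes with a detection p under 0.01 on at least 3 arrays, 13941 had a gene name. Names came from the platform's annotation, where 23978 probes had 1 symbol, 0 had several and 1719 had none, and 23962 matched a RefSeq gene by Entrez identifier. The brightest probe stood for each of the 2717 genes with several, which left 10144 genes of 16593. Near the scanner's ceiling, at or above 65000, lay 7 values. The number of arrays limits the precision.

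A model with 1 mean per stage and no block was fitted to the 12 arrays (8 residual degrees of freedom, eBayes). Estrus was tested against the equal-weight mean of the other stages, and against each stage with the largest of the 3 p-values. The scripts were tested on simulated data. Genes were named by rule: the 15 with the largest difference to the nearest stage among those apart, without clone names, the 4 largest each way called against the mean alone, Pgr, Esr1 and Ovgp1, and up to 4 members of each list. The members, lists and tests were chosen with earlier results of these data known.

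Residuals of same-numbered arrays correlated across stages (r 0.62 to 0.81 for number 1, 0.26 to 0.51 for number 2, 0.36 to 0.55 for number 3). The numbers were taken to pair the arrays in a second fit only. Numbers 2 and 3 correlated as much with each other (0.22 to 0.54), so the residuals set number 1 apart and do not show a pairing by numbers 2 and 3. Counts of called genes from a fit with the array number as a block are therefore given beside those it moves by over 1.5 times, and the blocked adjusted p beside 8 genes in the text whose call against every stage it changes. The alternatives were other background corrections, normalizations, filters, probe rules and fits, and leaving out each array.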

Additional observations from a re-analysis of the deposited data

Results flagged for a closer look

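Of 116 named genes, 6 had an array among the 9 other arrays that lay far from the rest (a gap past Dixon's critical value), and chance flags about 1 in 20 such groups. Of these, 3 bear on genes apart at estrus or on the ovarian list. Smarca1 read 7.85 on diestrus array 1, with the next array at 8.19 and the highest at 8.54. Esr2 read 6.03 on proestrus array 2, where it was detected, with the next at 5.27. Fshr read 5.49 on the same proestrus array, with the next at 5.01, and was undetected there.

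The other 3 lay on metestrus array 1. Errfi1, a feedback inhibitor of EGF receptor signalling, read 12.91 there with the next at 12.44. S100a8 and S100a9, the calprotectin subunits of neutrophils, were low there at 8.1 and 6.63, with the next at 8.91 and 7.62. No explanation of these readings was tested.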

How the results depend on the processing

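Blocking on the array number treats same-numbered arrays as paired across stages, which the labels do not state. It raised the genes called against the mean to 412 (298 higher, 114 lower), against 137 without it. Those apart from every stage rose to 66 (65 higher, 1 lower), against 34. All 137 and all 34 were among them, so the block ended none of these calls. A block for the brighter set of arrays gave 454 and 68, and numbers 2 and 3 alone gave 260 and 41. Without a block, normalizing each set apart gave lower counts, 25 against the mean and 4 apart (Prss35, Defb19, Sprr2d and Clca1). The deposited values without a block gave 52 and 13. The reason for these lower counts was not tested. The deposited values with the set as a block, added after seeing the data, gave 381 and 64. Keeping the genes detected on all 12 arrays (8315 tested) gave 86 and 17, all 17 among the 34, and adding the array number as a block, also chosen after seeing the data, gave 374 and 38. A fit with 2 groups, estrus and the rest, gave 73 against the mean. Leaving out 1 array gave 83 (without estrus array 2 or 3) to 186 (without metestrus array 1) against the mean, and 24 (without estrus array 3) to 40 (without metestrus array 1, 39 higher and 1 lower) apart. The 7 remaining settings (raw intensities, median scaling, offset 50, no filter, a detection p under 0.05, the mean of the probes, and eBayes with trend and robust) gave 131 to 152 and 24 to 39. Estrus was lower for Pdyn with a difference of -0.21 under median scaling and under normalization within each set, and of -0.14 with the deposited values without and with the set block. In each of these 4 its other probe was the brightest. Signal near background limits genes detected at estrus alone, for which folds are bounds.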

Other observations

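Among the 837 kept probes without a gene name, 2 stood apart from every other stage as higher at estrus and 0 as lower.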
